A study of Mus musculus and Homo sapiens with 22 samples.

Results

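The CCR4-NOT deadenylase complex genes were followed as a group of 10 mouse genes (Cnot1, Cnot2, Cnot3, Cnot4, Cnot6, Cnot6l, Cnot7, Cnot8, Cnot9 and Cnot10), chosen by name, together with the human genes of the same upper-case symbols. All 10 had counts in each of the 6 RNA-seq libraries and were among the 15731 genes tested. Their exons held 30 of the 25456 m6A sites listed for mouse embryonic stem cells (mESC), 21 of the 46421 sites listed for mouse heart at 1000 ng of RNA, and 12 of the 36556 sites listed for HEK293T cells.

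The sites came from miCLIP2, in which an antibody against N6-methyladenosine (m6A) is crosslinked to RNA so that reverse transcription stops next to the modified base. The m6Aboost classifier then separated m6A from background peaks. The mESC list was made from wild-type (WT) cells in 3 replicates, of which the first was run as 2 technical replicates, and the HEK293T list, from a human embryonic kidney line, from 4 replicates. The heart lists were made from purchased mouse heart RNA, with 1 library for each input. RNA-seq was done on poly(A)+ RNA of WT mESC (n = 3) and Mettl3 knockout (KO) mESC (n = 3), which differ in Mettl3, the catalytic subunit of the main mRNA m6A methyltransferase. Neither group received any treatment. Both mESC lines were obtained from an earlier study, and nothing in the labels says that replicates were separate cultures, so the p-values measure the spread between these samples only. Whether the KO cells came from 1 clone is not given either. Loss of Mettl3 and other differences between the WT and KO lines therefore cannot be told apart.

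CCR4-NOT shortens the poly(A) tails of mRNAs, which is the usual first step of their decay. Cnot1 is the large scaffold to which the other subunits bind. Cnot2 and Cnot3 form the NOT module near its C-terminus, Cnot9 forms a platform for adaptor proteins, and Cnot10 binds at the N-terminus together with Cnot11. The nucleases come as pairs of paralogs, Cnot6 or Cnot6l (the CCR4 type) and Cnot7 or Cnot8 (the CAF1 type). Cnot4 is a RING-type ubiquitin ligase that is only loosely attached to the complex in mammals. The m6A reader Ythdf2 recruits the complex to methylated mRNAs through Cnot1, so these genes encode part of the machinery that acts on m6A and can carry the mark themselves.

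m6A sites occurred at the same aligned base in mouse and human in 5 of these genes. Of these 7 pairs the 21-base windows of 6 are shown first, since they carry the match between the species; the other pair lay in Cnot1. Each window is centred on the modified A and was read from the transcripts of GENCODE M21 (GRCm38) and GENCODE 44 (GRCh38). Capitals mark the 5 bases around it. Names give the distance in nt from the last base of the stop codon along the transcript, negative within the coding region (CDS).
Cnot2 +796: tgaaaatgGGACAttctggaa
CNOT2 +835: tgaaaatgGGACAttctggaa
Cnot2 +806: acattctgGAACTgctggtca
CNOT2 +845: acattctgGAACTgctggtca
Cnot2 +910: caagacgtGAACTgagacaat
CNOT2 +951: aaagaagtGAACTgagacaat
Cnot3 +75: gccctggaAGACTgggggagg
CNOT3 +78: gccctggaAGACTggagggag
Cnot6 +2058: cagtgggtGGACTgatgggac
CNOT6 +2058: agctggttGGACTaatgagac
Cnot8 -55: gaggatgtGGACTgtgcccag
CNOT8 -55: gaggatgtGGACTctgcccag
The windows around Cnot2 +796 and +806 were identical to the human ones in 21 of 21 bases, the Cnot8 window in 20 and the Cnot2 +910 window in 19. The windows of Cnot3 and Cnot6 shared 18 and 15 bases, and that of Cnot1 +61, aligned with CNOT1 +61, shared 14. In Cnot1 a gap next to the motif can be placed in more than one way, and the pair was counted where either placement aligned the modified bases.

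All 7 mouse sites of these pairs were in the mESC list, and 5 of them (Cnot1 +61, the 3 in Cnot2 and Cnot6 +2058) were also in the heart 1000 ng list. Of the 12 HEK293T sites, 7 aligned with a mouse base that carried the DRACH motif, the usual m6A context (D stands for A, G or T, R for A or G, H for A, C or T), and all 7 of those mouse bases had a site. The other 5 HEK293T sites (among them CNOT2 +936, CNOT8 -115, CNOT8 +55 and CNOT9 +184) aligned with mouse bases outside any DRACH motif, and none of them had a mouse site. For CNOT2 +936 the mouse pentamer was GGGCT, and for CNOT8 +55 and CNOT9 +184 it was GGTCC. Their middle base is not an A, so no mouse site was possible there. In the other direction the relation was looser. Of the 38 mouse sites in the mESC or heart list, 29 aligned with a human DRACH motif, and 7 of these had a HEK293T site, as did 0 of the 9 without one. Among those 9, Cnot10 +67 (human TGGCA), Cnot6 -357 (GAGTT) and Cnot9 +1068 (GGGTT) aligned with a base other than A. A human site was not possible there either. The sequence around a peak is among the inputs of the classifier, so the motif is not independent of the call.
CNOT2 +936: atgtgatgGGACTtaaaagaa
This site is shown as an example of a human site without a mouse partner, in a gene where other sites had one. CNOT2 +936 had a prediction score of 0.825, above 77.6% of all HEK293T sites.

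Over the complex, 9 of the 10 genes had at least 1 site in mESC, all but Cnot6l. Of the 5325 tested genes at or above 33.4 CPM (counts scaled to a common library size), the lowest WT mean of a CCR4-NOT gene, 78.2% had a site. In mESC 21 of the 30 sites lay in 3′ UTRs, 8 in coding sequence and 1 in a 5′ UTR, and 23 (76.7%) were in the last exon of the transcript. In heart 12 of 21 sites lay in 3′ UTRs and 9 in coding sequence, and in HEK293T 10 of 12 and 2 of 12, with all 12 in the last exon. DRACH surrounded 29 of 30, 20 of 21 and 11 of 12 sites, against 92.9%, 93.1% and 89.3% of all sites in the respective lists. GGACT was the most frequent context in mESC with 12 sites, followed by AGACT and GAACT with 5 each.

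**Figure D1:**
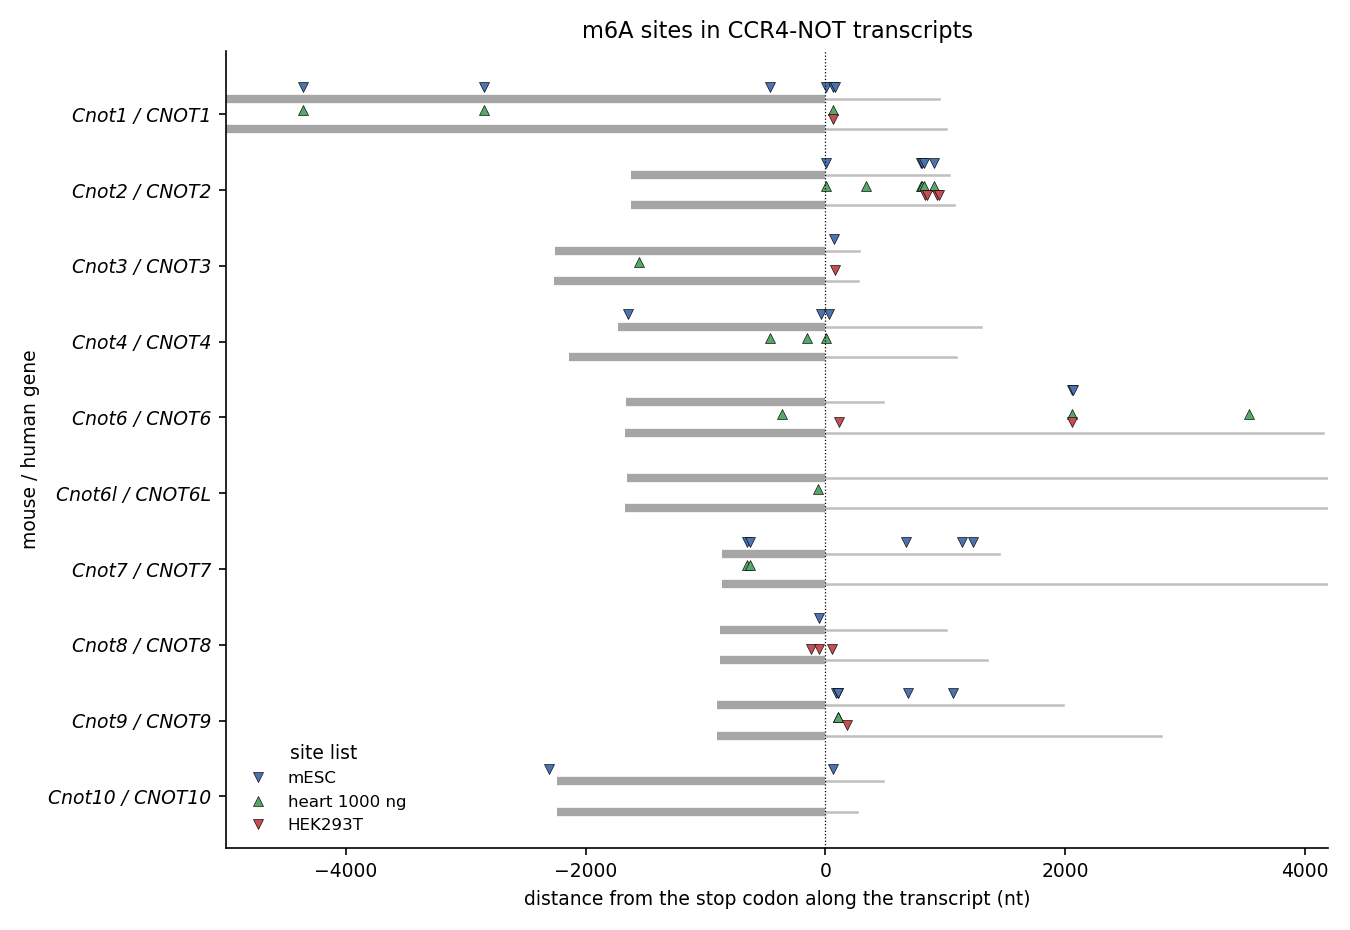
Positions of m6A sites (triangles, coloured by list) along the transcripts of the 10 CCR4-NOT genes, with the distance from the stop codon in nt on the x axis. For each gene the upper bar is the mouse and the lower bar the human transcript (thick line coding sequence, thin line 3′ UTR, cut at the plot's edges); mouse Cnot6 sites at +2058, +2067 and +3536 and Cnot10 +67 lie in other transcripts of those genes than the one drawn.

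In the NOT module, Cnot2 (chromosome 10, minus strand) carried a cluster of 4 sites in its 3′ UTR, at +796, +806, +821 and +910 (positions 116485404, 116485394, 116485379 and 116485290). All 4 were in both the mESC and the heart list. Their mESC scores were 0.832, 0.791, 0.810 and 0.881. The human cluster held +835, +845, +936 and +951 on chromosome 12, with scores of 0.848, 0.725, 0.825 and 0.650. Thus 3 positions of the cluster were shared, and each species had 1 position of its own. One more site, 5 nt after the stop codon (116486195), was shared by mESC and heart only. With 5 sites in mESC and 6 in heart, Cnot2 had 1.23 and 1.47 sites per kb of exon, higher than 78.9% and 74.7% of genes with a site. The 3′ UTRs of mouse and human Cnot2 were identical at 95.9% of aligned bases, the highest share among the 10 genes, where Cnot10 had the lowest at 57.4%.
Cnot2 +821: tggtcaggGGACTttgtcgcc
Cnot2 +5: ttctaaaaAGACTtccctttt
These 2 mouse sites are shown as those of Cnot2 shared by mESC and heart without a human counterpart, although the human base lay in the same pentamer in both cases. Cnot3, the other NOT-module gene (chromosome 7, plus strand), had 1 site in mESC, in the last exon (+75, position 3660901, score 0.745), and a different one in heart, in exon 8 of 18 (position 3653414). The mESC site was the one with a human partner, CNOT3 +78 on chromosome 19 (score 0.711).

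Cnot9, the adaptor platform (chromosome 1, plus strand), held the mESC site with the highest score of the complex. It lay at +105 (position 74528959) with a score of 0.981, above 99.7% of all mESC sites, and it also ranked highest of the complex in heart, above 86.2% of the list. A second site 5 nt downstream (74528964) was shared by both lists and had the context GTACT, outside DRACH. Its score was 0.729, and in heart it stood above 2.02% of sites.
Cnot9 +105: tcagtgctGAACTgtactgga
Cnot9 +110: gctgaactGTACTggagaaaa
The human base aligned with +105 lay in GAACC and was not in the HEK293T list. CNOT9 had 1 HEK293T site at another position, +184 on chromosome 2 (score 0.813). Cnot9 had 5 mESC sites in all, 1.31 per kb of annotated exon, the highest density of the complex by that length. The rank depends on the length used. Cnot2 and Cnot7 also had 5 sites each, on coding transcripts of 2800 and 2615 nt, shorter than the 3268 nt of Cnot9.

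Cnot1, the scaffold, is encoded on the minus strand of chromosome 8 (95719451 to 95807464 in GRCm38). It held 6 mESC sites, more than any other gene of the complex and more than 78.7% of all genes with a site, where the median gene had 3. Cnot1 is also long, and per kb of annotated exon it had 0.349 sites, below the median of 0.598 among genes with a site. This density depends on the length used, since the annotated exons add up to 17169 nt. The coding transcript, which held all 6 sites, has 8364 nt. The site with the highest score was in exon 31 of 49 (position 95741935, score 0.900, above 90.9% of mESC sites), and the next in exon 21 (position 95752621, score 0.882). Both were also in the heart list, above 80.1% and 80.2% of its sites.
These internal coding sites lay at -2851 and -4359 nt from the stop codon. The first aligned with a human base in GGATT, outside DRACH, and the second with one in GGACT, and neither had a HEK293T site. CNOT1 had a single HEK293T site, at +61 in its 3′ UTR (chromosome 16, position 58520897, score 0.760).

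Among the nucleases, the paralogs of each pair differed in their sites. Cnot7 (chromosome 8, minus strand) had 5 mESC sites and Cnot8 (chromosome 11, plus strand) had 1. For Cnot7, 2 sites 25 nt apart in exon 3 of 7 (positions 40507557 and 40507532) were shared with heart, and 3 sites in the 3′ UTR (40493314, 40492849 and 40492756, scores 0.847, 0.881 and 0.827) were in the mESC list only. CNOT7 had 0 HEK293T sites. For Cnot8 the pattern was the opposite: 1 site in mESC (position 58117533, score 0.869), 0 in heart, and 3 in HEK293T, of which the middle one on chromosome 5 (position 154875384, score 0.869) was the partner of the mouse site. The outer ones scored low, CNOT8 -115 at 0.565 and CNOT8 +55 at 0.539, above 14.5% and 8.85% of HEK293T sites. Cnot6 (chromosome 11, minus strand) had 2 mESC sites 9 nt apart, and the one at +2058 (position 49673135, score 0.909) was also in the heart and HEK293T lists. This site lies beyond the end of the principal transcript, in a longer 3′ UTR. Cnot6l had 0 sites in mESC and 0 in HEK293T, and 1 in heart (chromosome 5, position 96077237, in the last exon at -57). Its transcript contains 165 DRACH motifs, and that of Cnot1 168. In WT mESC RNA-seq Cnot6l was the lowest of the 10 genes, at 3.90 CPM per kb of transcript, beside 110.6 for Cnot1 and 42.8 for Cnot7. The part of this low level in the missing sites was not tested. In mESC 9.09% of the DRACH motifs in the Cnot7 transcript carried a site, 7.14% in Cnot2 and Cnot9, and 0% in Cnot6l. It was also 0% in the drawn Cnot6 transcript, since both Cnot6 sites lay outside it.

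Of the peripheral subunits, Cnot4 (chromosome 6, minus strand) had 3 sites in mESC and 3 in heart at 6 different positions, and its mESC sites all scored below the median of that list. The highest in mESC was at +32 (position 35046226, score 0.679). Cnot10 (chromosome 9, minus strand) had 2 mESC sites, in its 5′ UTR and, with the higher score of 0.714, in the last exon of a shorter transcript (position 114617710). It had 0 sites in heart and in HEK293T.

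Comparing mESC with heart, 13 sites were at the same base, which is 43.3% of the mESC sites and 61.9% of the heart sites of the complex. Over the whole lists, 59.6% of mESC sites and 32.7% of heart sites were shared. The remaining 17 mESC sites and 8 heart sites were in their own list only, and no RNA-seq of heart or HEK293T was used here, so for a site missing in those lists an unmethylated base and a transcript too low to be read cannot be told apart. The genes of the 8 heart-only sites did have RNA-seq counts in mESC, and all of them but Cnot6l carried other mESC sites. The lists also give no read depth per site. The tissue labels were checked on marker genes: the titin gene Ttn had 195 sites in heart and 0 in mESC, Ryr2 23 and 0, while Nanog had 0 in heart and 7 in mESC. Of the other heart genes looked up, Myh6 had 1 site in heart and Actc1 had 0. The lists at lower inputs were shorter as a whole, with 19.1%, 2.40% and 0.534% as many sites at 300, 100 and 50 ng as at 1000 ng. Of the sites in the complex, the 300 ng list held 2 (Cnot2 +796 and Cnot9 +105) of 8845 sites, and the 100 and 50 ng lists held 0 of 1112 and 0 of 248. Both sites kept at 300 ng were also in the 1000 ng and mESC lists.

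The RNA-seq comparison asked how CCR4-NOT transcripts differed between the Mettl3 KO and WT lines. Gene counts were 22746733 to 27254245 per library. Reads still mapped to Mettl3 in KO, with counts of 462, 669 and 457 beside 560, 698 and 612 for WT (log2 fold change -0.50, SE 0.14, edgeR adjusted p = 0.0134). The call threshold was an adjusted p of at most 0.01, as edgeR gave it over all genes, and Mettl3 did not reach it. It did with the replicate number as a block (edgeR adjusted p = 0.00281) and in DESeq2 (adjusted p = 0.00661). Which part of the gene was deleted is not given in the sources used here, so these counts do not check the labels. The sum of 8 stem cell markers was 4498 to 4692 CPM in WT and 3307 to 3375 in KO. Its lower value came from Dppa5a and Tdgf1, and the other 6, among them Pou5f1, Nanog and Sox2, summed to 2636 to 2823 in WT and 2804 to 2838 in KO, with Esrrb above its WT range. The sum of 9 feeder fibroblast markers was 10.7 to 14.8 and 13.6 to 14.6 CPM, of which 3 (Col1a2, Thy1 and Pdgfra) lay above and 2 (Col1a1 and Pdgfrb) below their WT range in KO. The part of these shifts in the results below was not tested.

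Of the 10 CCR4-NOT genes, 4 fell in KO (Cnot1, Cnot10, Cnot7 and Cnot3), 0 rose and 6 did not pass the test in edgeR. DESeq2 likewise called 0 higher and 4 lower. Over all genes, at the adjusted p of at most 0.01, edgeR called 12.6% lower, 17.1% higher and 29.7% in either direction. At an unadjusted p under 0.05 edgeR had 1 higher and 5 lower of the 10, and the share of all genes there was not counted. An adjusted p of at most 0.05 also gave 1 higher and 5 lower, and 7336 of all 15731 genes passed it. Ranges of WT and KO did not overlap for 7 of 10 genes, 5 lower and 2 higher, against 56.1% of all genes tested. The median log2 fold change of the 10 genes was -0.25, beside -0.02 for all genes. Cnot1 and Cnot7 lie on chromosome 8, where 34.6% of 829 genes were called lower and 7.36% higher, with a median log2 fold change of -0.44. Without them 2 of 8 genes were lower, and the median was -0.18. The part of the chromosome-wide shift in the values of Cnot1 and Cnot7 was not tested.

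**Figure D2:**
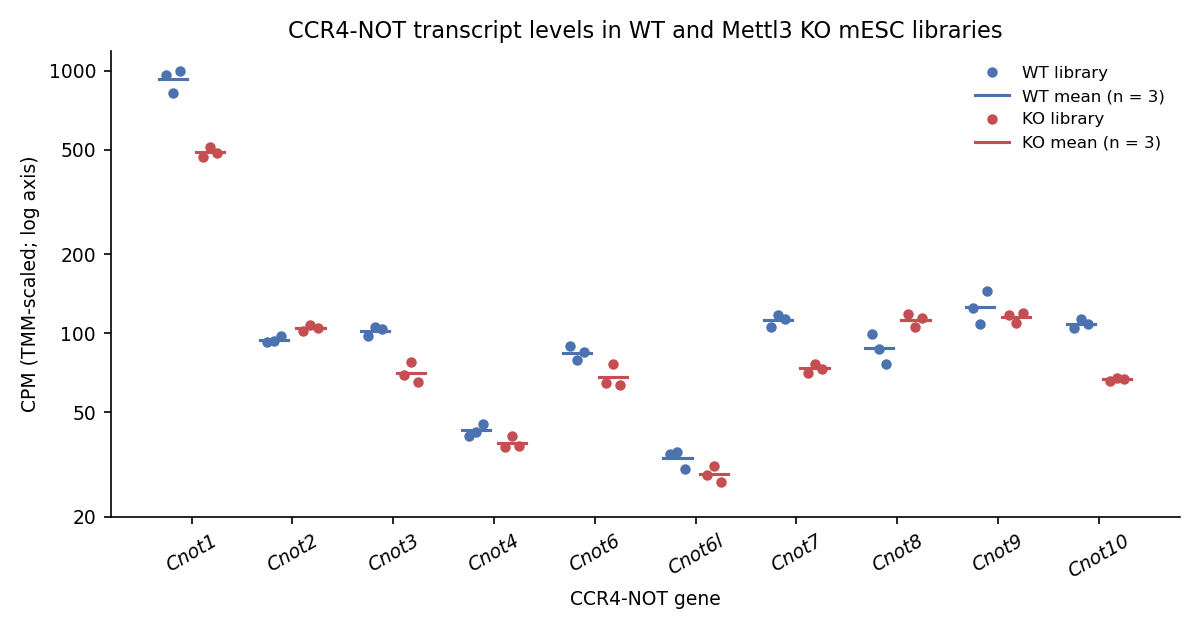
CPM of each CCR4-NOT gene (log axis) in the 3 WT and 3 KO libraries, with points for libraries and lines for means. Cnot1 stands above all others and fell from a mean of 925 to 489 CPM, while the KO points of Cnot2 and Cnot8 lie above the WT points.

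Cnot1 gave 959, 822 and 994 CPM in the WT libraries and 470.4, 509.7 and 486 in KO. The highest KO library was well below the lowest WT library. The log2 fold change was -0.92 (SE 0.12, edgeR adjusted p = 0.000227), the strongest of the complex. Its annotated exons add up to 17169 nt, against 8364 nt for the coding transcript used, so reads in other annotated exons also enter its value. The second chromosome 8 gene, Cnot7, had 106, 117 and 113 CPM in WT and 70.4, 76.5 and 73.2 in KO. Its change was -0.61 (SE 0.10, edgeR adjusted p = 0.000757), also without overlap.

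Off chromosome 8, Cnot10 fell the most. It had 104, 113 and 108 CPM in WT and 65.5, 67.5 and 67.0 in KO, with a spread between KO libraries of only 1.03 CPM (SD, n = 3). The log2 fold change was -0.70 (SE 0.09, edgeR adjusted p = 0.000275). Cnot3 had 97.1, 106 and 104 CPM in WT and 69.0, 77.5 and 65.1 in KO, a change of -0.53 (SE 0.11, edgeR adjusted p = 0.00238). The Cnot3 call was the least stable of the 4: it was lost without KO replicate 1 (adjusted p = 0.0178), without KO replicate 3 (0.0172) and with scaling by library size only (0.0248), with the same direction in each.

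Cnot11, which binds Cnot1 together with Cnot10, is not in the group of 10. It had 31.1, 37.4 and 44.1 CPM in WT and 38.4, 46.5 and 39.9 in KO, so the ranges overlapped, and its log2 fold change was 0.15 (SE 0.14, edgeR adjusted p = 0.422). The NOT-module partners also had values of opposite sign. Cnot2 had 92.8, 93.2 and 97.5 CPM in WT and 102, 107 and 104 in KO, all KO libraries above all WT libraries, but its change of 0.15 (SE 0.09) was not called (edgeR adjusted p = 0.223).

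The CAF1-type nucleases Cnot7 and Cnot8 had opposite signs. Cnot8 had 99.6, 87.0 and 76.2 CPM in WT and 118, 105 and 115 in KO. Its log2 fold change of 0.36 (SE 0.12) was not called in the fit without a block (edgeR adjusted p = 0.0299). Same-numbered WT and KO libraries deviated together, but only weakly for number 1 (correlation 0.122, beside 0.110 for WT replicate 3 with KO replicate 1). With the replicate number as a block Cnot8 was called higher (0.37, edgeR adjusted p = 0.00506), in a fit that called 43.5% of all genes. Expressed as a share within each library, Cnot8 made up 67.5%, 62.1% and 59.9% of the per-length counts of Cnot7 and Cnot8 in WT, and 78.7%, 75.2% and 77.6% in KO. This amounts to a mean share of 63.2% ± 3.91 for WT and 77.1% ± 1.79 for KO (SD, n = 3 each), a difference of 13.97 percentage points. The ranges did not overlap, and the two-sided exact permutation test gave p = 0.1, the smallest value that 3 against 3 libraries allow. A share within a library does not depend on the scaling between libraries. Cnot7 is one of the chromosome 8 genes, and the part of that in the shift was not tested.

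In the CCR4-type pair both genes had values below 0. Cnot6 had 89.3, 78.7 and 84.4 CPM in WT and 64.3, 76.4 and 63.3 in KO (log2 fold change -0.31, SE 0.11, edgeR adjusted p = 0.0449, not called). Cnot6l had 34.6, 35.1 and 30.4 CPM in WT and 28.8, 31.2 and 27.2 in KO (-0.20, SE 0.12, edgeR adjusted p = 0.178, not called). Cnot6l took a share of 20.3% ± 1.77 in WT libraries and of 21.5% ± 0.790 in KO libraries (SD, n = 3 each), with overlapping ranges and p = 0.3 in the exact permutation test. Whether the shift differed between the pairs was not tested.

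**Figure D3:**
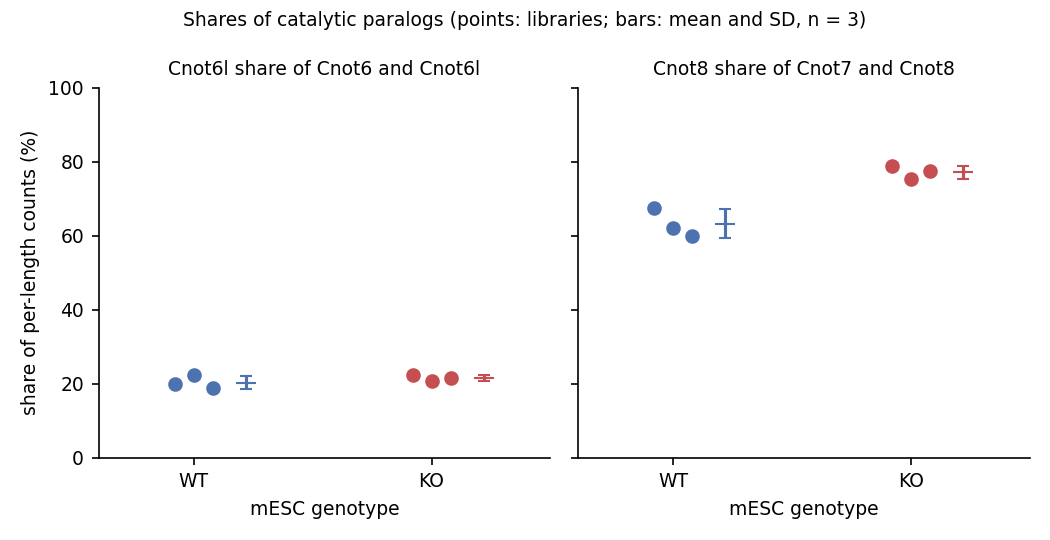
Share of per-length counts (%) taken by Cnot6l within Cnot6 plus Cnot6l (left) and by Cnot8 within Cnot7 plus Cnot8 (right), with points for libraries and bars for mean and SD (n = 3). The KO libraries of Cnot8 lie between 75.2% and 78.7%, above all WT libraries, while the Cnot6l ranges overlap.

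The last 2 genes had overlapping ranges. Cnot4 had 40.5, 42.0 and 45.2 CPM in WT and 36.9, 40.6 and 37.1 in KO (-0.16, SE 0.11, edgeR adjusted p = 0.249). Cnot9 had 125, 109 and 145 CPM in WT and 117, 109 and 119 in KO (-0.13, SE 0.12, edgeR adjusted p = 0.404). Side by side with the mESC sites, the genes that fell were Cnot1 with 6 and Cnot7 with 5, both on chromosome 8, Cnot10 with 2 and Cnot3 with 1. Those not called were Cnot2 and Cnot9 with 5 each, Cnot4 with 3, Cnot6 with 2, Cnot8 with 1 and Cnot6l with 0. A link between sites and change was not tested. Across the 10 genes Spearman's rho between the number of mESC sites and the log2 fold change was -0.22, a description over genes measured in the same libraries.

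**Figure D4:**
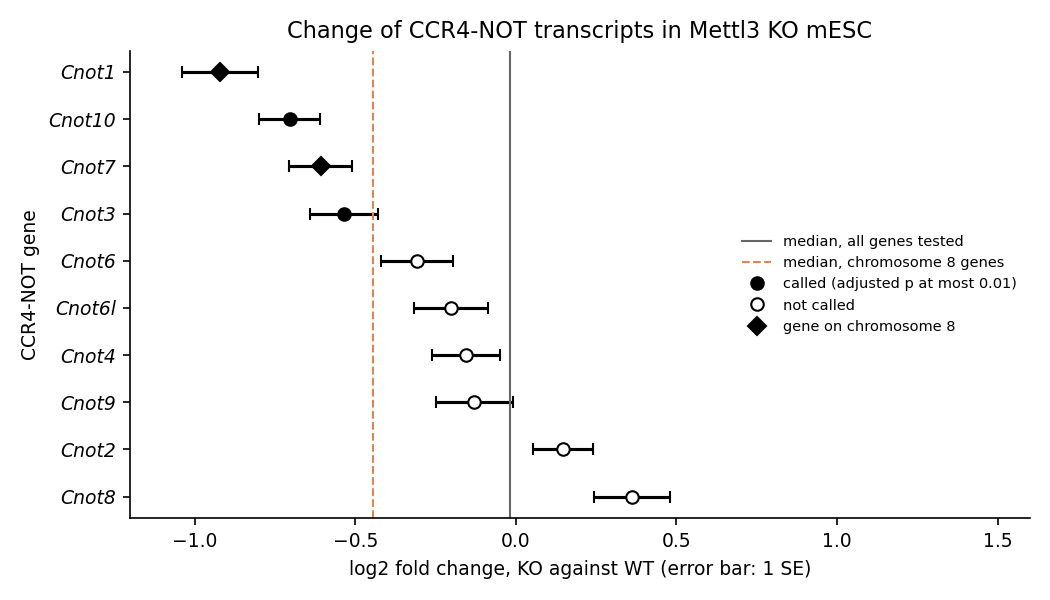
Log2 fold change of each CCR4-NOT gene in KO against WT with 1 SE (error bars), filled where called and drawn as diamonds on chromosome 8. The 4 called genes lie between -0.92 and -0.53, and the lines mark the medians of all genes (-0.02) and of chromosome 8 genes (-0.44).

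Per kb of annotated exon, the WT levels ordered the genes as Cnot1 (53.9 CPM per kb), Cnot8 (33.2), Cnot9 (32.9), Cnot2 (23.2), Cnot7 (19.2), Cnot10 (16.4), Cnot3 (14.3), Cnot6 (12.7), Cnot4 (4.35) and Cnot6l (3.24). Neighbours in this order had separate ranges in WT, except Cnot8 and Cnot9. In KO, Cnot8 stood first at 42.7 CPM per kb, followed by Cnot9 at 30.1 and Cnot1 at 28.5, whose ranges overlapped. The order depends on the length used: divided by the coding transcript in place of all annotated exons, Cnot1 stayed first in WT and Cnot7 came second, and in KO Cnot1 was also first, at 58.4 CPM per kb beside 53.6 for Cnot8.

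The other genes of tail shortening and decay were read from the same fit. Of 73 genes in 6 lists 70 were tested, of which 8 rose and 10 fell, or 25.7% against 29.7% of all genes. With the replicate block 10 rose and 17 fell, or 38.6% against 43.5% of all genes, and the genes added by it, named below, were chosen after their values were seen. Nanos2 had too few counts for the test, and Pde12 and Exosc6 were counted at 0 in all libraries. The reason for these 0 counts was not examined, so they are not read as absence of the transcripts. Among 7 further partners of the complex (Cnot11, Tnks1bp1 and the BTG/TOB proteins), 0 were called in edgeR without a block or in DESeq2, where 1 was higher and 1 lower at an unadjusted p under 0.05 in edgeR. The share of all genes at that unadjusted threshold was not counted. With the replicate block the antiproliferative gene Btg1 was called higher (0.40, SE 0.11, edgeR adjusted p = 0.00426).

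In the list called other deadenylases, which also holds CCR4-like proteins, 7 genes were tested, of which 3 rose and 0 fell. Whether each of these proteins shortens poly(A) tails was not measured here. Noct, the circadian CCR4-like protein nocturnin, had 38.8, 33.0 and 32.8 CPM in WT and 549.9, 627 and 523 in KO, a log2 fold change of 4.02 (SE 0.13, edgeR adjusted p = 9.15e-08). It was the largest change in any of these lists. Toe1, which trims the tails of small nuclear RNAs, changed by 1.14 (SE 0.22), and Angel2, a further protein of the CCR4-like family, by 0.53 (SE 0.12). Without WT replicate 1 the list held 1 call.

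Of 15 factors that recruit the complex, 2 rose and 1 fell. Ythdf2 gave 82.9, 77.8 and 89.2 CPM in WT and 201, 214 and 204 in KO (log2 fold change 1.31, SE 0.10, edgeR adjusted p = 1.35e-05). The reader's transcript was higher in all KO libraries, and that of its contact on the complex, Cnot1, was lower in all of them. Samd4, a Smaug protein, rose by 1.54 (SE 0.29) from 0.695 to 2.04 CPM. The related Samd4b, at 87.9 CPM in WT and 85.9 in KO, was not called (-0.03, edgeR adjusted p = 0.832). Zfp36l1, which binds AU-rich elements, fell by 1.04 on the log2 scale (SE 0.14). With the replicate block Tnrc6c, of the microRNA silencing complex, was lower too (-0.52). Among 8 poly(A) tail binding proteins and their partners, 3 fell and 1 rose. The cytoplasmic poly(A) binding proteins Pabpc4 (-0.90, SE 0.14) and Pabpc1 (-0.74, SE 0.16) fell, as did Paip2 (-0.48), which inhibits them, and Larp1 rose (0.54, SE 0.12). With library size scaling, and without KO replicate 2 or KO replicate 3, 2 genes of the list were called, and without WT replicate 1 or KO replicate 1 there was 1.

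In the decapping list 4 of 18 genes fell and 0 rose. Lsm4 (-1.04) and Lsm6 (-0.81), subunits of the ring that binds shortened tails, and the decapping scaffold Edc4 (-0.99) lie on chromosome 8, and Patl1 (-0.68) does not. With the replicate block Dcp2, the decapping enzyme (-0.39), and Lsm1 (-0.44) fell as well. In the exosome and SKI list, which degrades from the 3′ end, 2 of 15 genes rose (Exosc4, 0.88, and the cytoplasmic nuclease Dis3l, 0.48) and 2 fell (the nuclear nuclease Exosc10, -0.60, and Exosc8, -0.46). With the block Exosc9 (0.35) was also higher, and Exosc7 (-0.45), Dis3 (-0.36), Skiv2l (-0.58) and Ttc37 (-0.33) were also lower, and without WT replicate 1, KO replicate 1 or KO replicate 3 there was 1 call in each direction. The list medians of the log2 fold change were 0.15 for partners of the complex, -0.01 for other deadenylases, -0.16 for recruiting factors, -0.22 for tail binding proteins, -0.20 for decapping and -0.21 for exosome and SKI, beside -0.25 for the 10 CCR4-NOT genes and -0.02 for all genes.

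**Figure D5:**
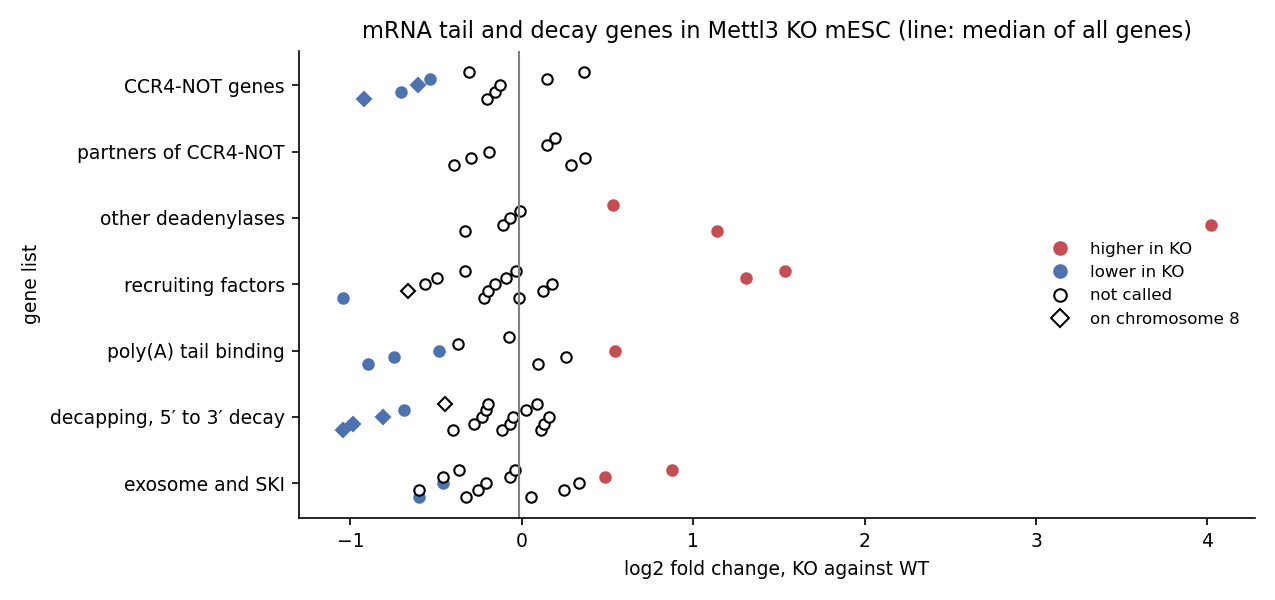
Log2 fold change in KO against WT (x axis) of each gene in the 7 lists (rows), coloured where called and drawn as diamonds on chromosome 8, with a line at the median of all genes. Noct stands apart at 4.02, and 3 of the 4 called decapping genes are on chromosome 8.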

How the data were processed

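Values were used as deposited, and no reads were mapped again. The authors made the gene counts from single-end reads with STAR (GRCm38, 1 location kept for reads that mapped to several) and stranded htseq-count, and deposited them as raw whole numbers. Lines naming no gene, with 36.7 to 42.7% of all counts, were left out. The deposited score of the mESC and HEK293T sites is the authors' m6Aboost prediction, made at PureCLIP peaks found in several replicates. The heart score has another, unstated scale and only ranked sites within a list. Sample titles give the lower heart inputs in µg, whereas the study gives ng, which was used. The miCLIP2 samples of Mettl3 KO cells were not used here.

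KO was compared with WT by the quasi-likelihood test of edgeR 4.0.16 under R 4.3.3, after filterByExpr and TMM scaling, with Benjamini-Hochberg adjustment over 15731 genes and calls at an adjusted p of at most 0.01. SE was derived from the quasi-likelihood F. CPM are TMM-scaled. The procedure was also run on simulated data with a common dispersion for all genes and no replicate effects. That setting is simpler than these libraries, so no conclusion is drawn from it. Deviations from the group means of same-numbered WT and KO libraries correlated at 0.122, 0.464 and 0.303, beside -0.342 to 0.110 for unlike numbers. The highest of the latter was WT replicate 3 with KO replicate 1, so the match of number 1 was weak. The labels do not say that the numbers pair libraries. They were taken as pairs, and a fit with the number as a block was run beside the unblocked one. DESeq2 1.42.0, other scalings and filters, an adjusted p of 0.05 and leaving out each replicate were alternatives. Shares of paralogs used counts divided by annotated exon length. Reads shared by paralogs could be split between them.

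Sites were placed with bedtools 2.31.1 on exons of GENCODE M21 (GRCm38) or 44 (GRCh38), which differ from the authors' releases, on the same strand and in exons of 1 gene. Positions are 1-based. Transcripts were the APPRIS principal one with the longest 3′ UTR in mouse and the canonical one in human. They were aligned globally in Biopython 1.88 (match 2, mismatch -1, gap opening -5, extension -0.5).

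The genes and lists were chosen with earlier results of these data known. Named were all 10 genes, Mettl3, Cnot11, Ythdf2 and, per further list, the called genes with the 2 highest and 2 lowest log2 fold changes. Named sites were the highest-scoring per gene in mESC and HEK293T and those shared between lists, except 1 HEK293T site that is counted but not reported here. Others were named after their values were seen. The site lists hold no value per replicate.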

Additional observations from a re-analysis of the deposited data

How the results depend on the processing

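Of the 4 calls in the complex, Cnot1, Cnot7 and Cnot10 were made under each alternative fit, and Cnot3 was lost in 3 of them. The replicate block gave 1 gene higher (Cnot8) and 4 lower, 5 calls in all, and changed no other call among the 10 genes. Over all genes 43.5% were called with the block, against 29.7% without it. Leaving out single replicates gave 3 to 4 calls. Without the genes on chromosome 8, an alternative chosen after seeing the data, 2 calls remained. With scaling by library size alone, the median over all genes was 0.08 on the log2 scale in place of -0.02. In the decay lists, 18 calls became 27 with the replicate block and 11 to 20 when 1 replicate was left out. The 11 calls were obtained without WT replicate 1 or without KO replicate 1. Restricting the lists to sites at or above the median score left 12 of 30 sites in mESC, 12 of 21 in heart and 8 of 12 in HEK293T, and the 300 ng heart list shared 2 sites with mESC in place of 13. Including introns or keeping only DRACH sites changed the counts by at most 1. A tolerance of 2 nt left the 13 shared sites and the 7 mouse and human pairs. For the Cnot8 share, the difference between KO and WT was 12.3 to 16.1 percentage points when 1 replicate was left out. Raw counts gave 16.7 and the longest coding transcript 16.0. Within replicate numbers (replicate block) it was 13.97, at an exact sign-flip p of 0.25, the smallest that 3 pairs allow. The Cnot6l share differed by 0.452 to 2.19 points when 1 replicate was left out. The cause of these changes was not tested.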
